A study of Mus musculus with 13 samples.

Results

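The nuclear-encoded subunits of the mitochondrial respiratory chain and the ATP synthase were compared across 6 leukocyte populations of the mouse spleen. The members were chosen by annotated symbol alone: Nduf genes other than the Ndufaf assembly factors, Uqcr genes, Cox4 to Cox8 genes, Atp5 genes, and Sdha, Sdhb, Sdhc and Sdhd. Of 18194 genes with a probe set annotated to 1 gene, 82 met this rule: 36 of complex I, 4 of complex II, 8 of complex III, 17 of complex IV and 17 of complex V, the ATP synthase. Each was represented by its probe set with the highest mean signal. Ndufa4 and Ndufa4l2 were placed with complex I by their symbols, although the NDUFA4 protein is now usually counted with cytochrome c oxidase.

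The respiratory chain sits in the inner mitochondrial membrane. Complex I takes electrons from NADH and complex II from succinate, ubiquinone carries them to complex III, and cytochrome c carries them on to complex IV, which reduces oxygen. Complexes I, III and IV pump protons, and the ATP synthase makes ATP as the protons flow back. Most subunits are encoded in the nucleus, a few core subunits of all but complex II are encoded in mitochondrial DNA, and some subunits of complex IV come in alternative forms, of which one is found in most tissues and the other in heart and skeletal muscle.

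RNA was profiled on 13 Affymetrix Mouse Genome 430 2.0 arrays of cells sorted from spleens of untreated wild-type C57BL/6 mice. Plasmacytoid dendritic cells (pDCs, Lin-CD11c+120G8high), CD8α conventional dendritic cells (cDCs, Lin-CD11chighCD8α+120G8-/low), CD11b cDCs (Lin-CD11chighCD11b+120G8-/low), NK cells (NK1.1+TCRβ-) and CD8 T cells had 2 arrays each, and B cells had 3. Spleens of 10 to 15 mice were pooled for a DC array and of 6 to 10 mice for an NK cell array. The 3 B cell arrays used 3, 2 and 1 mice, and a CD8 T cell array used 1. Age is given for 5 arrays: 6 to 8 weeks for CD8α cDC replicate 1 and both CD8 T cell arrays, and 6 weeks for B cell replicates 2 and 3. A pool of spleens hides the spread between animals, so p-values measure the spread between these arrays only. The word follicular is used of B cell replicates 2 and 3 but not of replicate 1.

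Several arrays stood apart before any member was considered. The labels give the sex of the mice for 5 arrays, and on 3 of them the RNA opposed the label: both CD8 T cell arrays, labelled female, carried Y-linked transcripts and no Xist, and B cell replicate 2, labelled male, carried Xist and no Y-linked transcripts. All 6 DC arrays carried Xist and 6 of 7 lymphocyte arrays carried Y-linked transcripts instead, so sex ran nearly with the contrast between DCs and lymphocytes. All DC arrays were scanned in a first period, NK and B cell arrays in a later one and CD8 T cell arrays in the last. Cell family and scanning period therefore cannot be told apart, nor can scanning period and the difference between NK and CD8 T cells. The ratio of 3′ to 5′ GAPDH control probe sets, a measure of RNA integrity and of amplification length, was 23.9 and 11.2 on the NK cell arrays and 3.46 to 6.30 on the others. For B cell replicates 2 and 3 the instrument records give 50 ng of RNA, where the labels give 100 ng. These arrays also shared a chip lot that no other array had. B cell replicate 1 carried the plasma cell transcript Jchain at a signal of 7866, against 92.1 and 332 on replicates 2 and 3. Sdc1, the other plasma cell marker listed, ran the other way, at 82.8 against 182 and 241. The summed signal of 4 neutrophil markers was 858 on replicate 1, against 59.3 and 265. The correlation of replicate 1 with replicates 2 and 3 was 0.934 and 0.935. It was 0.975 to 0.987 within the other populations and 0.979 between B cell replicates 2 and 3. Each population carried its own defining markers; CD11b cDCs also carried 5 of 6 macrophage and monocyte markers, with a summed signal of 4741 and 5244, against 370.6 and 456 on the CD8α cDC arrays. Transcripts of Cd8a were also found in pDCs (781 and 1047) and of Gzma, a granzyme of NK cells, in CD8 T cells (2303 and 954).

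Promoters of 5 members are shown because these genes carry the findings below. Cox6a1 is the partner of the member with the widest range. Atp5l, Uqcr11 and Ndufb1 had the widest ranges in their complexes. Atp5k differed both between cDC subsets and between NK and CD8 T cells. Each window holds 250 bases before to 50 bases after the annotated start, from RefSeq on GRCm38.p6, written 5′ to 3′ along the gene. Capitals mark matches on either strand to the NRF1 consensus motif (10 letters with 1 free position), CCGGAAG (an ETS motif, as bound by GABP) and AAGATGG (a YY1 motif). These factors are known regulators of respiratory chain genes.
Cox6a1 (chr5:115348909-115349208, minus strand): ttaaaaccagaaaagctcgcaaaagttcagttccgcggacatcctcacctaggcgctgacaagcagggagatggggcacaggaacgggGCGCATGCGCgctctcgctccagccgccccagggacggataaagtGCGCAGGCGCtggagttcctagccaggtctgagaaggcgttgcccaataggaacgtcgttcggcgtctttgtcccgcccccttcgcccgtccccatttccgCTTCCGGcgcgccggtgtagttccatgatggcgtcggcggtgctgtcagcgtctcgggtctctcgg
Atp5k (chr5:108434350-108434649, minus strand): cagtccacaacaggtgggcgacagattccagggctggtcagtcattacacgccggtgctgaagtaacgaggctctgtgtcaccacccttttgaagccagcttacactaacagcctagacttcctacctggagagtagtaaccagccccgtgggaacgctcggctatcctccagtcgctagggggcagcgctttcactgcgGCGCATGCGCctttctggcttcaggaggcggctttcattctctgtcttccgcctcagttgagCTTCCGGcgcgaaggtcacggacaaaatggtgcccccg
Atp5l (chr9:44920693-44920992, minus strand): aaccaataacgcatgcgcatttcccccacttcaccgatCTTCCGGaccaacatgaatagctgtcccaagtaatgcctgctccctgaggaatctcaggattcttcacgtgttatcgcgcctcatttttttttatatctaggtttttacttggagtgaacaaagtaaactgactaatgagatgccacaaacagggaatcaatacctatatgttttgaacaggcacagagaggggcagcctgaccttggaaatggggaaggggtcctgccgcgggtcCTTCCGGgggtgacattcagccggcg
Uqcr11 (chr10:80406772-80407071, minus strand): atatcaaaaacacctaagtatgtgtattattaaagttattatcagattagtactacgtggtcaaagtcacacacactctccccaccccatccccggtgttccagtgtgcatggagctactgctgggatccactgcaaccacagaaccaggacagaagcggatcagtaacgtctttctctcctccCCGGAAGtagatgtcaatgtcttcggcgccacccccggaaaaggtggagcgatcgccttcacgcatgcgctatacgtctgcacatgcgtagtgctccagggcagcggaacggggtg
Ndufb1 (chr12:101975689-101975988, minus strand): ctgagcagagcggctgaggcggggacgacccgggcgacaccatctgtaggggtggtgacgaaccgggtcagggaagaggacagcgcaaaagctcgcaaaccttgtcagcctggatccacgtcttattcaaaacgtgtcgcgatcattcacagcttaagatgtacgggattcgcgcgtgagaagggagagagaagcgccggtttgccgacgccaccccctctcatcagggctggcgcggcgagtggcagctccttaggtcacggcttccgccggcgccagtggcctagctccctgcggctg

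The Cox6a1 window held 2 matches to the NRF1 letters and 1 to the ETS letters, Atp5k held 1 of each, Atp5l held 2 ETS matches, Uqcr11 held 1 and Ndufb1 held none of the motifs searched. A promoter window was found for 67 of 82 members, in 72 windows. The NRF1 motif was in 22.2% of them, against 4.6% of all 32851 windows, CCGGAAG in 23.6% against 8.86%, and AAGATGG in 13.9% against 6.34%. The CCAAT box (CCAAT) was in 40.3% of the member windows against 37.4% of all, and the GC box (GGGCGG) in 41.7% against 35.7%. The NRF1 letters were in 6 of 18 windows of ATP synthase genes, 2 of 3 of complex II, 6 of 34 of complex I, 1 of 5 of complex III and 1 of 12 of complex IV. These matches describe the letters of the windows and say nothing of binding in these cells.

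The deposited values are MAS5 signals on a linear scale, with the trimmed mean of each array set to 100, so every value is relative to the other RNA of the same array. Each array holds a sorted population in bulk, so a transcript in fewer of its cells and less of it per cell cannot be told apart. A gene was tested when 1 or more populations had every replicate at a signal of 50 or above. This held for 75 members and 9380 genes in all. Among the members, 72 had signals of at least 50 on all 13 arrays, and Cox6a2, Cox8c and Ndufb1 passed through some populations only. Their differences are given below as descriptions without a test, although the counts of called members include them. The 7 members that were not tested were Cox4i2, Cox6b2, Cox7a1, Cox7b2, Cox8b, Ndufa4l2 and Ndufb4. Cox4i2, known from lung, and Cox7a1 and Cox8b, the heart and muscle forms, stayed between 0.69 and 26.9 on every array. Cox6b2 and Cox7b2, known from testis, stayed between 0.309 and 25.3, and Ndufa4l2, induced by hypoxia in other cells, between 1.43 and 36.3. Cox7b was not analysed here. The probe set annotated to Ndufb4 alone did not exceed 22.6.

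Differences among the 6 populations were common in the members but small. By limma's F-test 61 of 75 members differed among the populations, against 82.8% of all genes tested. The range of the 6 population means had a median of 1.06 (log2) over the members and of 1.52 over all genes. CD8α cDCs had the highest mean for 39 of 75 members and the lowest for 0. NK cells had the highest mean for 20 members, CD8 T cells for 9, B cells for 4, pDCs for 2 and CD11b cDCs for 1. B cells had the lowest mean for 39 members and CD8 T cells for 22, followed by pDCs and NK cells with 6 each and CD11b cDCs with 2.

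The level of a complex on an array was described as the mean, over its tested members, of the log2 signal minus the mean of that member's 6 population means. Over all 75 members it was 0.08 and -0.05 on the pDC arrays, 0.25 and 0.47 on the CD8α cDC arrays, and -0.04 and 0.08 on the CD11b cDC arrays. It was -0.15, -0.48 and -0.36 on the B cell arrays, 0.14 and 0.16 on the NK cell arrays and -0.22 and -0.19 on the CD8 T cell arrays. Both CD8α cDC arrays lay above all other arrays, and B cell replicates 2 and 3 lay below all others. These B cell arrays are those with the smallest recorded RNA amount and their own chip lot, whose part was not tested.

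**Figure D1:**
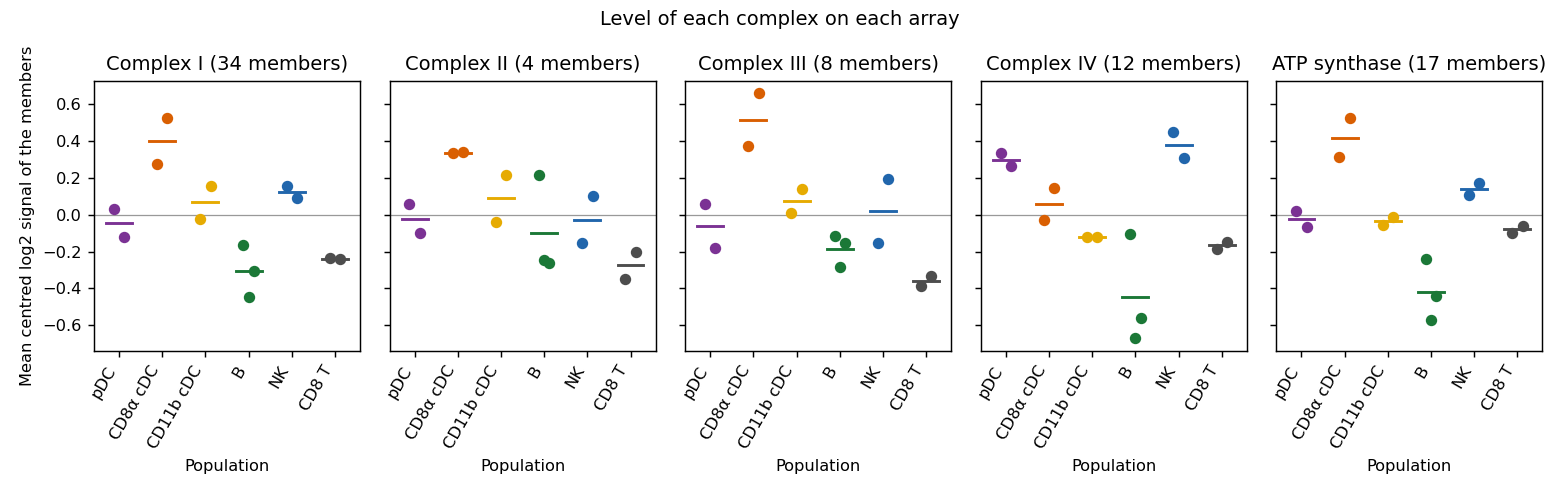
Level of each complex on each array (mean over its members of the log2 signal, centred per member on the mean of the 6 population means). Points are arrays and bars population means. CD8α cDC means are the highest in complexes I, II, III and the ATP synthase, where they lie between 0.33 and 0.51, and B cell means are the lowest in complexes I and IV and the ATP synthase, at -0.31, -0.44 and -0.42.

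The complexes shared most of this order. Complex III, which passes electrons to cytochrome c, had a mean level of 0.51 in CD8α cDCs and -0.36 in CD8 T cells, and all 8 of its members lay above their centre on both CD8α cDC arrays. In complex IV the means of pDCs (0.30) and NK cells (0.38) exceeded that of CD8α cDCs (0.06). The pDC value rests on Cox6a2: only 5 and 2 of 12 complex IV members lay above their centre on the pDC arrays, and the median member was at -0.08 and -0.12. In NK cells 11 and 8 of 12 did. Cox6a2, at -1.65 and -1.80, also lowered the CD8α cDC value, where 9 of 12 members lay above their centre on each array and the median member was at 0.18 and 0.45, against 0.40 and 0.29 in NK cells. Replicates of a population also differed across many members at once: 66 of 75 were higher on CD8α cDC replicate 2 than on replicate 1, with a median difference of 0.25, and 10 of 75 were higher on B cell replicate 2 than on replicate 1, with a median of -0.37. The medians over all genes were 0.00 and -0.04.

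**Figure D2:**
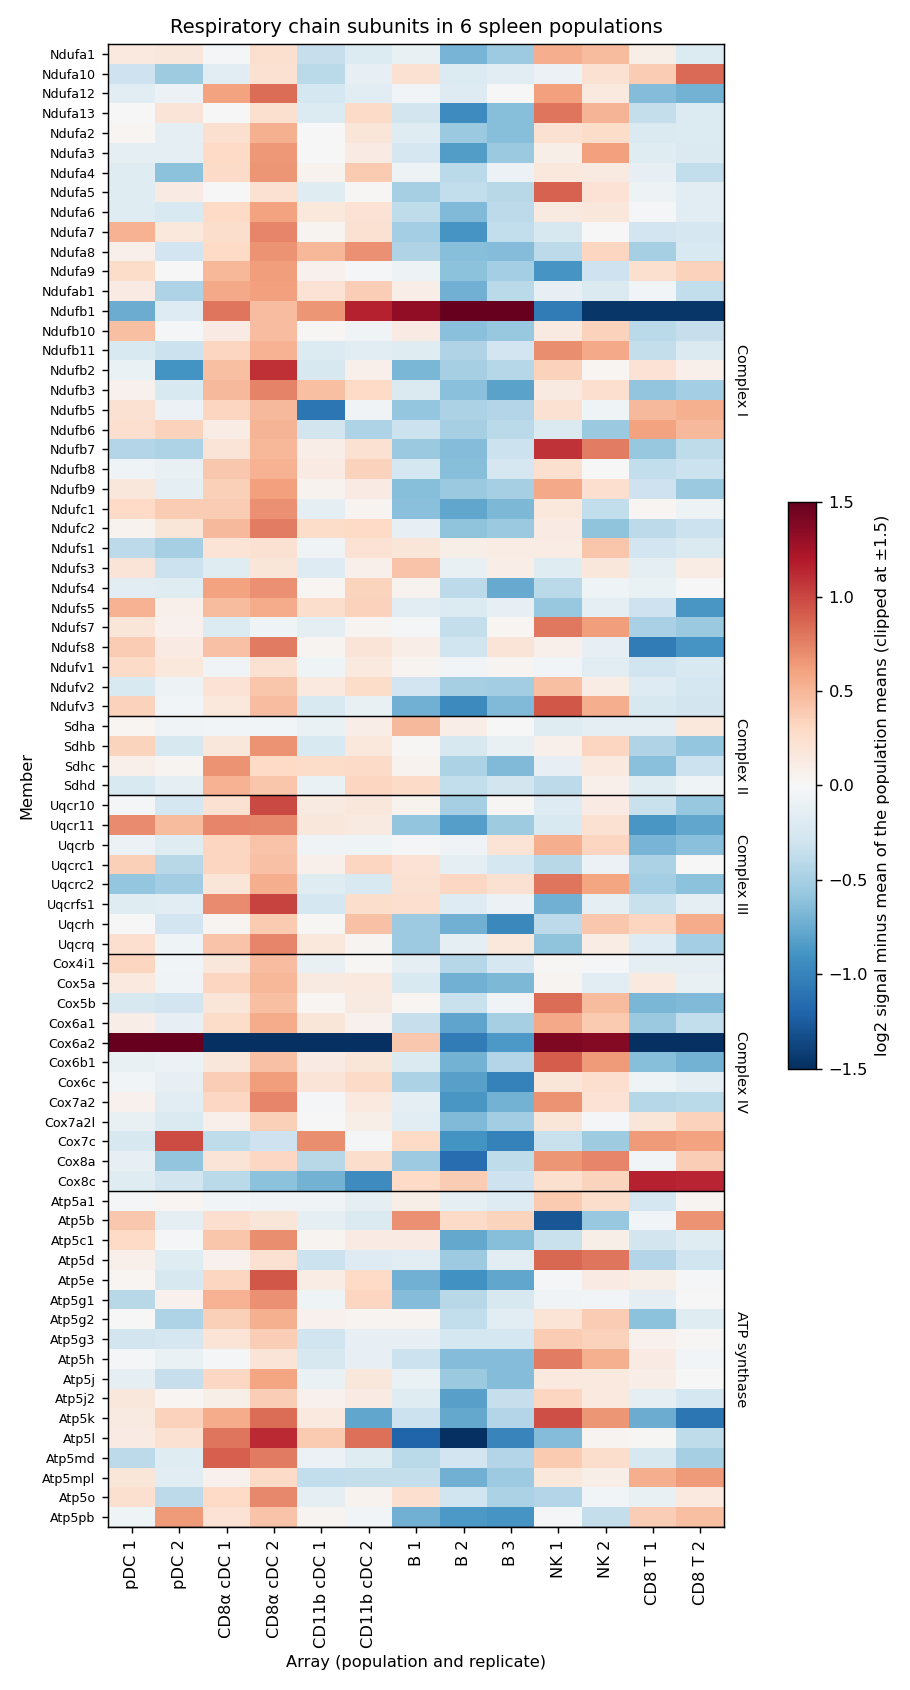
Centred log2 signal of the 75 tested members (rows, grouped by complex) on the 13 arrays (columns), with red above and blue below the mean of the 6 population means, clipped at ±1.5. Most rows are red in CD8α cDCs and blue in B cells. Among the exceptions, Cox6a2 and Cox8c are blue in CD8α cDCs and Ndufb1 is red in B cells.

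The first comparison set the DC family against lymphocytes, as the mean of pDCs, CD8α cDCs and CD11b cDCs minus the mean of B, NK and CD8 T cells. By limma 35 of 75 members were higher in DCs and 3 were lower, at an adjusted p under 0.05. Of all genes tested, 31.3% were higher and 32.3% lower. The median difference was 0.27 over the members and -0.02 over all genes. Higher were 17 of 34 members of complex I, 1 of 4 of complex II, 4 of 8 of complex III, 6 of 12 of complex IV and 7 of 17 of the ATP synthase. For 3 members, Atp5l, Ndufs5 and Ndufa7, no DC array overlapped a lymphocyte array, against 5.78% of all genes called higher in this way. No member was called lower in this way, against 5.6% of all genes.

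Atp5l, subunit g of the membrane part of the ATP synthase, had signals of 260.1 and 282 in pDCs, 416 and 519 in CD8α cDCs and 315 and 425 in CD11b cDCs. In lymphocytes its signals were 104, 80.4 and 120.1 in B cells, 152 and 245 in NK cells and 243 and 184 in CD8 T cells. The lowest DC array was above the highest lymphocyte array, and the log2 difference was 1.16 ± 0.16 (SE, adjusted p = 8.2e-05), the largest of any member in this comparison. Uqcr11, a small subunit of complex III, had 805 and 681 in pDCs, 817 and 810.3 in CD8α cDCs and 551 and 541 in CD11b cDCs. Its signals were 327, 277 and 339 in B cells, 418 and 575 in NK cells and 268 and 287 in CD8 T cells. NK cell replicate 2 lay above both CD11b cDC arrays, and the log2 difference was 0.98 ± 0.11 (adjusted p = 1.5e-05).

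The accessory complex I subunits Ndufs5 and Ndufa7 rose by 0.74 ± 0.13 and 0.65 ± 0.13 (adjusted p = 0.00048 and 0.0012). The lowest DC and highest lymphocyte signals were 175 and 153 for Ndufs5 and 526 and 513 for Ndufa7, so their groups were separated by a narrow gap. Of the 3 members counted as lower, Ndufa10, an accessory subunit of complex I, fell by 0.43 ± 0.13, and Uqcrc2, a core protein of complex III, by 0.26 ± 0.09 (adjusted p = 0.016 and 0.031). The other, Cox8c, entered the test only through CD8 T cells, where it was highest, so its difference of -1.04 is a description without a test. Their arrays overlapped between the families. The call of Ndufa10 was lost without CD8α cDC replicate 1, and that of Uqcrc2 without any one of 5 arrays. Without both NK cell arrays the difference of Uqcrc2 was 0.022. Of the 38 members called, 22 stayed called whichever array was left out. Without CD8α cDC replicate 2, 23 members were higher, and without CD8α cDC replicate 1, 1 was lower. Without the 3 arrays whose sex markers oppose their labels, which leaves B and NK cells as the lymphocytes, 16 of 74 members were higher. Of all genes 27.6% were, so the share of members was then below the background. The part of sex and of scanning period in these differences was not tested.

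**Figure D3:**
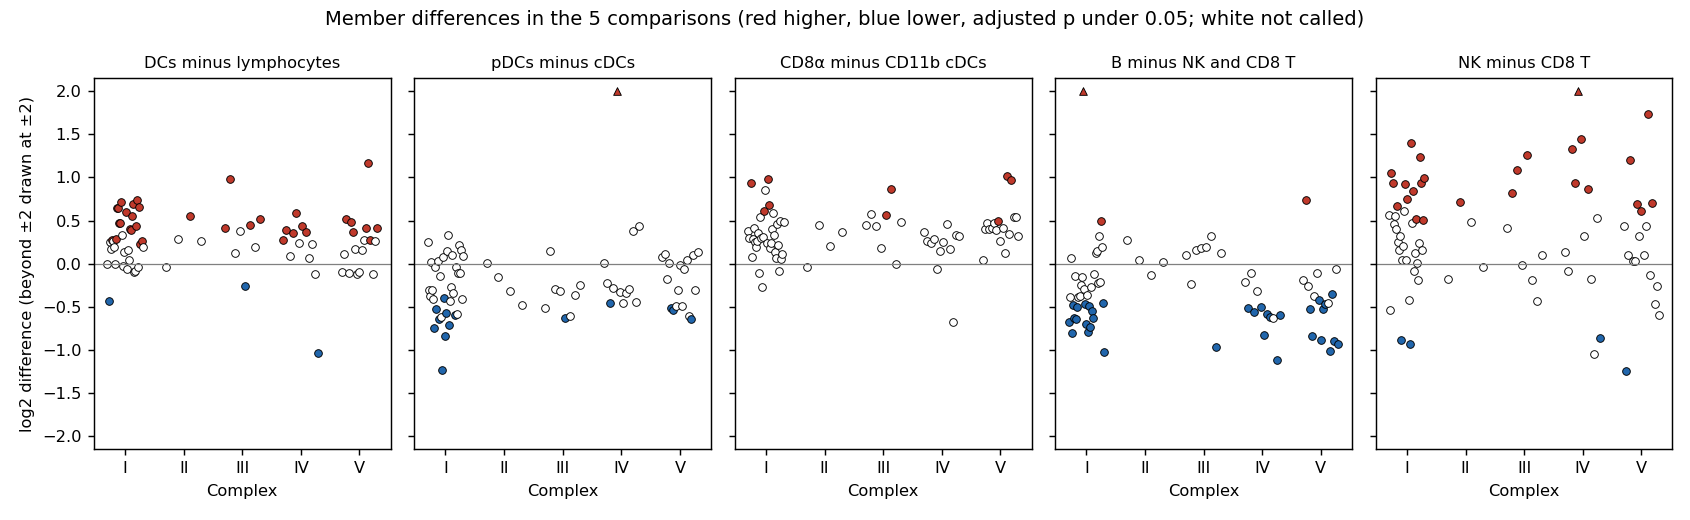
Log2 difference of each tested member (points, spread sideways within each complex) in the 5 comparisons, with red for higher and blue for lower at a limma adjusted p under 0.05, white for not called and triangles for values beyond ±2. In the comparison of B cells with NK and CD8 T cells 34 of 75 members are blue, and in that of CD8α with CD11b cDCs 9 are red and 0 blue.

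Within the DC family, pDCs were first set against both cDC subsets, a contrast within 1 scanning period. By limma 1 member was higher in pDCs and 14 were lower, against 17.7% and 19.1% of all genes, with a median difference of -0.30 over the members and 0.00 over all genes. The share of members that fell was thus close to the background, and that of members that rose was below it. For 11 of the 14, both pDC arrays lay below all cDC arrays, against 15.8% of all genes, and the member that rose was separated as well, against 16.3%. Lower were 9 members of complex I, 0 of complex II, 1 of complex III, 1 of complex IV and 3 of the ATP synthase. By pairwise contrasts 1 member was higher and 23 lower in pDCs than in CD8α cDCs (18.3% and 18.4% of all genes), and 2 were higher and 3 lower than in CD11b cDCs (14.3% and 15.5%).

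The member that rose was Cox6a2, the heart and muscle form of a regulatory subunit of cytochrome c oxidase, which passed the filter only through pDCs and NK cells, where it was highest. Its signals were 1485 and 1231 in pDCs, against 22.2 and 3.48 in CD8α cDCs and 24.1 and 15.2 in CD11b cDCs. In the other populations they were 92.3, 33.7 and 38.5 in B cells, 184 and 182 in NK cells and 8.42 and 21.3 in CD8 T cells. Both pDC arrays lay far above all others, the NK cell arrays came next without overlapping any other population, and the cDC and CD8 T cell arrays lay around the floor of 20 below which values were raised to 20.

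For Cox6a2 the log2 difference of pDCs from cDCs was 5.97 ± 0.33, a value held down by that floor. The gene entered the test only through pDCs and NK cells, so its differences are a description without a test. Next in the order, pDCs exceeded NK cells by 2.88, NK cells exceeded B cells by 1.89, and B cells exceeded CD11b cDCs by 1.17. The 3 lowest populations lay around the floor. A second Cox6a2 probe set gave 932 and 1041 in pDCs and 65.8 and 66.0 in NK cells, with at most 14.0 on all other arrays. On that probe set all B cell, cDC and CD8 T cell arrays were below the floor, and pDCs differed from cDCs by 5.62. Cox6a2 was also counted as higher in DCs than in lymphocytes (0.58 ± 0.21), although only pDCs of the 3 DC subsets carried it. That call was lost without any one of 11 arrays. Without the 3 arrays whose sex markers oppose their labels, that difference was -0.29.

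Cox6a1, the form of this subunit found in most tissues, was measured on the same arrays at 4209 and 3610 in pDCs, 4767 and 5803 in CD8α cDCs and 4477 and 4136 in CD11b cDCs. It had 3097, 2273 and 2784 in B cells, 5846 and 5161 in NK cells and 2678 and 3060.5 in CD8 T cells. The pDC arrays lay within the range of the other DC and lymphocyte arrays, and pDCs differed from cDCs by -0.29 ± 0.17 (adjusted p = 0.21). The promoter of Cox6a1 is the first shown above.

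**Figure D4:**
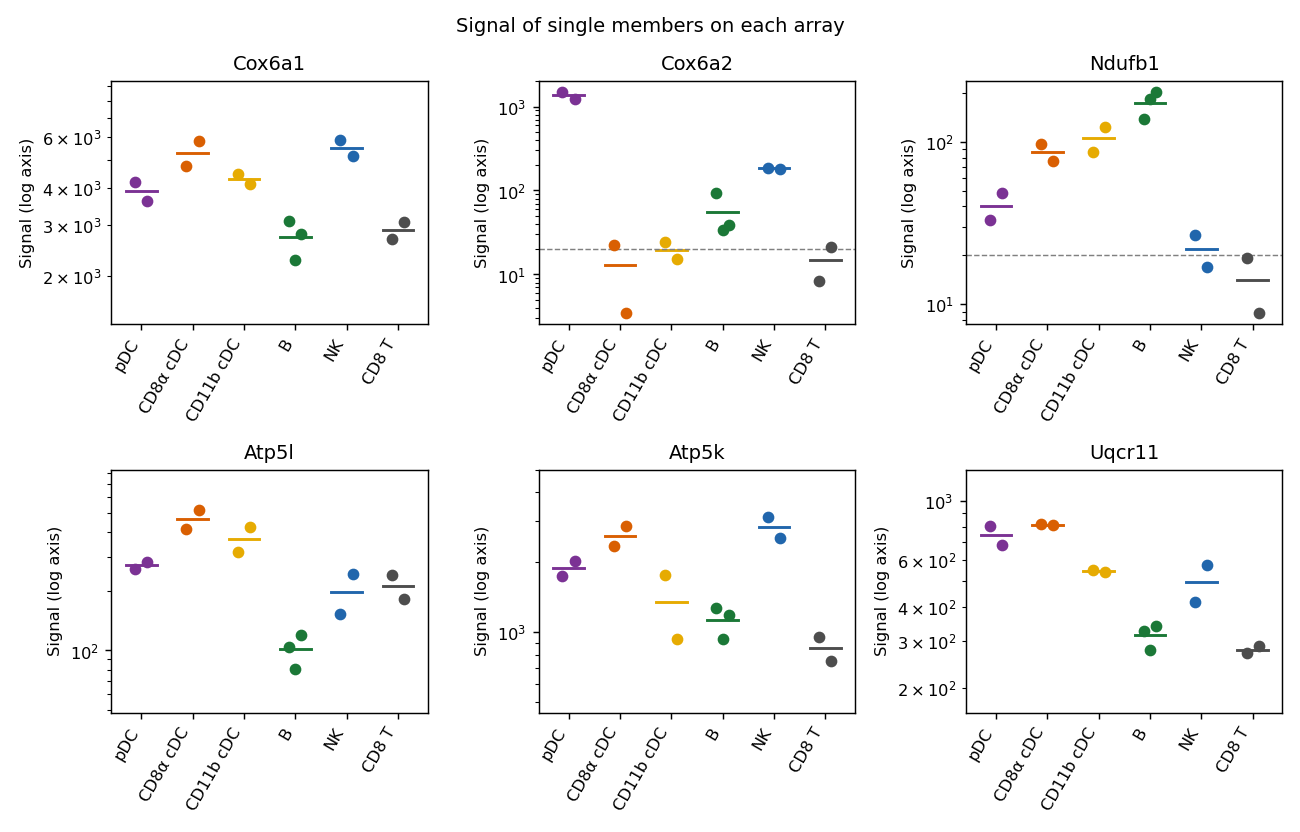
MAS5 signal (log axis) of 6 members on each array, with bars for the mean of each population and a dashed line at the floor of 20 where it lies in range. Cox6a2 stands at 1485 and 1231 in pDCs and at 184 and 182 in NK cells, and Ndufb1 is highest in B cells, while Cox6a1, Atp5l, Atp5k and Uqcr11 vary over narrower ranges.

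The 6 members that fell most in pDCs with arrays that did not overlap were Ndufb1, Ndufa4, Ndufb7, Ndufa8, Uqcrc2 and Ndufs1. Of these, Ndufb1 entered the test through B cells and both cDC subsets but not through pDCs, so its fall is a description. Ndufs1, the largest core subunit of complex I, which carries iron-sulphur clusters, had 452 and 423 in pDCs, against 689 and 696 in CD8α cDCs and 576 and 692 in CD11b cDCs. Both pDC arrays lay below all 4 cDC arrays, and the difference was -0.60 ± 0.14 (adjusted p = 0.0073). Ndufa4 differed by -0.75 ± 0.19, the accessory subunits Ndufb7 and Ndufa8 by -0.71 ± 0.16 and -0.64 ± 0.22, and Uqcrc2 by -0.63 ± 0.14 (adjusted p = 0.0099, 0.0057, 0.039 and 0.0056). The call of Ndufa4 was lost without pDC replicate 2, and that of Ndufa8 without any one of 7 arrays. Of the 15 members called, Ndufb7, Ndufs1, Uqcrc2 and Atp5md stayed called whichever array was left out. So did Cox6a2 and Ndufb1, which are given as descriptions only. The number that fell was 6 without pDC replicate 2, 7 without CD8α cDC replicate 2, 8 without CD11b cDC replicate 2 and 23 without B cell replicate 1, and without B cell replicate 3, 2 rose. On the DC arrays alone 1 rose and 22 fell, where 23% of all genes rose and 25.6% fell.

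CD8α cDCs were then set against CD11b cDCs. By limma 9 members were higher in CD8α cDCs and 0 were lower, against 8.96% and 10.6% of all genes, and 68 of 75 differences were positive. At an unadjusted p under 0.05 there were 17 members in both directions together, or 22.7%, against 31.1% of all genes. The median difference was 0.34 over the members and 0.00 over all genes, and the members' median was 0.20 without CD8α cDC replicate 2 and 0.48 without CD8α cDC replicate 1. The 9 were Ndufa12, Ndufb5, Ndufb6 and Ndufb11 of complex I, Uqcrc2 and Uqcrfs1 of complex III, and Atp5k, Atp5md and Atp5g3 of the ATP synthase.

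Atp5md, a small membrane subunit of the ATP synthase, had 539 and 497 in CD8α cDCs and 273 and 254 in CD11b cDCs. Its arrays did not overlap, the difference was 0.97 ± 0.16 (adjusted p = 0.0015), and in pDCs it had 220.3 and 255. Ndufa12, an accessory subunit of complex I, had 2294 and 2711 in CD8α cDCs and 1266 and 1344 in CD11b cDCs, a difference of 0.93 ± 0.19 (adjusted p = 0.0044). These were the 2 members that stayed called whichever array was left out. Both CD8α cDC arrays lay well above both CD11b cDC arrays for each of them.

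Larger or similar differences of other members depended on single arrays. Atp5k, subunit e of the ATP synthase, had 2349 and 2860.3 in CD8α cDCs and 1764 and 931 in CD11b cDCs (1.02 ± 0.29, adjusted p = 0.032), and Ndufb5 had 1119 and 1253 against 420 and 861 (0.98 ± 0.28, adjusted p = 0.034). In both genes the 2 CD11b cDC arrays lay far apart. Other probe sets of Atp5k gave 0.34 and 0.61 and were not called (adjusted p = 0.38 and 0.070). Uqcrfs1, the Rieske iron-sulphur protein of complex III, differed by 0.86 ± 0.25, and Ndufb6 by 0.68 ± 0.19 (adjusted p = 0.036 and 0.028). Without CD8α cDC replicate 2, 2 members were higher, without CD11b cDC replicate 1, 3 were, and without CD11b cDC replicate 2, 4 were. The summed macrophage and monocyte markers were higher on both CD11b cDC arrays, and their part in these differences was not tested.

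Pairwise contrasts placed each DC subset against each lymphocyte population. CD8α cDCs exceeded B cells for 56 members, with 3 lower (25.7% and 24.8% of all genes), and CD8 T cells for 43, with 1 lower (27.8% and 26.4%). Against NK cells 18 were higher and 6 lower in CD8α cDCs (24.1% and 26.6%). CD11b cDCs exceeded B cells for 28 members, with 4 lower (22.7% and 20.7%), and CD8 T cells for 17, with 5 lower (25.4% and 22.8%), but against NK cells 3 were higher and 19 lower (21.1% and 23.3%). In pDCs 19 were higher and 3 lower than in B cells (21.6% and 20.8%), 11 and 3 against CD8 T cells (22.7% and 21.2%), and 7 and 15 against NK cells (20.8% and 23.4%). Members were thus called higher most often in CD8α cDCs against B and CD8 T cells. The shares lower in pDCs and CD11b cDCs than in NK cells, whose arrays had the highest GAPDH 3′ to 5′ ratios, were near those of all genes. These contrasts share arrays with each other.

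Among lymphocytes, B cells were set against the mean of NK and CD8 T cells. By limma 3 members were higher in B cells and 34 lower, against 17.7% and 20.1% of all genes, and the median difference was -0.38 over the members and 0.00 over all genes. Lower were 15 of 34 members of complex I, 1 of 8 of complex III, 8 of 12 of complex IV and 10 of 17 of the ATP synthase, and 0 of 4 of complex II. For 20 of the 34, all B cell arrays lay below all NK and CD8 T cell arrays, against 11.7% of all genes, and of those that rose 1 was separated, against 12.4%. By pairwise contrasts 39 members were higher and 2 lower in NK cells than in B cells (21.5% and 18.1% of all genes), and 7 were higher and 16 lower in B cells than in CD8 T cells (18% and 16.9%). Within the scanning period that holds B and NK cells only, 2 of 74 members were higher and 26 lower in B cells. Of all 8024 genes tested there, 1136 were higher and 1438 lower.

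Cox8a, the form of the smallest cytochrome c oxidase subunit found in most tissues, had 213, 141 and 238 in B cells, against 491 and 518 in NK cells and 302 and 402 in CD8 T cells. All B cell arrays lay below the others, with a difference of -1.12 ± 0.23 (adjusted p = 0.0029). Ndufv3, a subunit of the NADH-oxidising part of complex I, had 542, 462 and 569 in B cells, against 1716 and 1309 in NK cells and 761 and 741 in CD8 T cells (-1.02 ± 0.16, adjusted p = 0.00042). Its B cell arrays were again the lowest, and its NK cell arrays the highest, of the lymphocytes.

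Atp5l, already described, fell by 1.01 ± 0.21 in B cells and Uqcrh, the hinge protein of complex III, by 0.97 ± 0.21 (adjusted p = 0.0036 and 0.0046). Atp5pb, subunit b of the stalk that holds the ATP synthase still, fell by 0.93 ± 0.17, and Atp5mpl, a small membrane subunit, by 0.90 ± 0.14 (adjusted p = 0.0015 and 0.00042). These calls and those of Cox8a and Ndufv3 held whichever array was left out, as did 19 of the 37 calls in this comparison. Without B cell replicate 2, whose sex markers oppose its label, 20 members were lower. Without B cell replicate 1, or without CD8 T cell replicate 1, 1 was higher. Without both NK cell arrays 7 of 75 were higher and 17 lower, where 1663 and 1571 of 9177 genes were. The median difference of the members was then -0.13.

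The members counted as higher in B cells were Ndufb1, Ndufs8, a core iron-sulphur subunit of complex I, and Atp5b, the catalytic β subunit of the ATP synthase. Ndufb1, a small accessory subunit of complex I, had 139, 182 and 203 in B cells, against 26.7 and 16.9 in NK cells and 19.3 and 8.84 in CD8 T cells. In DCs it had 33.0 and 48.1 in pDCs, 96.5 and 76.1 in CD8α cDCs and 87.0 and 123 in CD11b cDCs. Ndufb1 passed the filter through B cells and both cDC subsets only. Its B cell arrays were the highest of all, and the NK and CD8 T cell arrays were near or below the floor.

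For Ndufb1 the difference of B cells from NK and CD8 T cells was 3.00 ± 0.21, held down by that floor. Because of the way it passed the filter, its differences are a description without a test. B cells exceeded CD11b cDCs by 0.74, CD8α cDCs exceeded pDCs by 1.10 and pDCs exceeded NK cells by 0.79. The arrays of the 2 cDC subsets overlapped. Ndufb1 had the widest range of any complex I member, 3.11 (log2), and its promoter window above held no motif searched. It was measured by 1 probe set only. Ndufs8 and Atp5b rose in B cells by 0.50 ± 0.16 and 0.74 ± 0.23 (adjusted p = 0.032 and 0.026), and each of these calls was lost without B cell replicate 1 or CD8 T cell replicate 1, and also without NK cell replicate 2 or B cell replicate 3 for Ndufs8 and without NK cell replicate 1 for Atp5b.

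NK cells were last set against CD8 T cells. By limma 26 members were higher in NK cells and 4 lower, against 21.5% and 16.6% of all genes, with a median difference of 0.33 over the members and 0.05 over all genes. After invariant-rank normalization, which the methods of the study name for its compendia, these medians were 0.24 and 0.21. Higher were 12 of 34 members of complex I, 1 of 4 of complex II, 3 of 8 of complex III, 5 of 12 of complex IV and 5 of 17 of the ATP synthase. After Cox6a2 (3.15 ± 0.38, a description as above), the largest differences were those of Atp5k (1.73 ± 0.29), Cox6b1 (1.44 ± 0.19), Ndufb7 (1.40 ± 0.19), Cox5b (1.33 ± 0.19) and Uqcrc2 (1.26 ± 0.17). The adjusted p-values of these 5 lay between 0.00022 and 0.0010.

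Cox6b1, a cytochrome c oxidase subunit that faces the intermembrane space, had 8187 and 6754 in NK cells and 2799 and 2669 in CD8 T cells. Atp5k had 3126 and 2535 in NK cells and 953 and 752 in CD8 T cells. Ndufb7 had 4125 and 3300.1 in NK cells and 1309 and 1498 in CD8 T cells. In each case both NK cell arrays lay well above both CD8 T cell arrays, and NK cells had the highest mean of the 6 populations. The 4 members counted as lower were Atp5b (738 and 1211, against 1756 and 2869.8 in CD8 T cells, -1.25 ± 0.30), Ndufb6 (-0.93 ± 0.19) and Ndufa9, an accessory subunit of complex I (-0.89 ± 0.23), with adjusted p = 0.0080, 0.0032 and 0.012, and Cox8c. Without NK cell replicate 1 or CD8 T cell replicate 2 the calls of Atp5b and Ndufa9 were lost. Cox8c entered the test only through CD8 T cells, so its difference of -0.86 is again a description.

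Probe sets of 1 gene disagreed most in this comparison, which also holds the arrays with the highest GAPDH 3′ to 5′ ratios. Of 30 other probe sets of the called members, 9 had the opposite sign, in 8 genes. Uqcrb, a small subunit of complex III, rose by 1.09 ± 0.16 (adjusted p = 0.00045) in NK cells with 11842 and 10085 against 5012 and 5265 in CD8 T cells. On its second probe set it had 268 and 292 in NK cells and 601 and 574 in CD8 T cells, a difference of -1.07 (adjusted p = 0.0012). Ndufb11 and Ndufs8 were likewise called in opposite directions by 2 probe sets (0.92 and -0.72, 0.94 and -0.96).

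The opposite signs for Atp5k (-0.53, adjusted p = 0.089), Cox5b, Ndufa12, Ndufb9 and Uqcrc2 (-0.34, adjusted p = 0.33) did not pass the test. The other probe sets of Cox6b1 and Ndufb7 gave 0.87 and 0.76 (adjusted p = 0.0056 and 0.026), and a further one of Atp5k gave 1.30 (adjusted p = 0.00083). In the other comparisons 4 of 33 other probe sets had the opposite sign for DCs against lymphocytes (Atp5c1, Ndufs4, Ndufs8 and Sdhc, with 2 called), 1 of 10 for pDCs against cDCs (Cox5b), 0 of 9 for CD8α against CD11b cDCs and 4 of 32 for B cells (Ndufa5, Ndufb9 and Ndufv2). Called in the same direction were 20 of 33, 4 of 10, 3 of 9 and 12 of 32 in these comparisons, in the same order. Between NK and CD8 T cells 13 of 30 were. Which part of a transcript each probe set reads was not tested. Of the 30 calls between NK and CD8 T cells, 18 held whichever array was left out. The number of members that fell was 1 without NK cell replicate 1, 1 without CD8 T cell replicate 2 and 7 without B cell replicate 1.

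Complex II, the succinate dehydrogenase that also belongs to the citrate cycle, varied least: 1 of its 4 members passed the F-test, and no range of population means exceeded 0.96 (log2). Sdha, the flavoprotein subunit, had 1710 and 1612 in pDCs, 1625 and 1627 in CD8α cDCs, 1557 and 1786 in CD11b cDCs, 2339, 1794 and 1684 in B cells, 1472 and 1516 in NK cells and 1523 and 1869 in CD8 T cells. No population stood clear of the rest, and its range of 0.36 was the narrowest of the 4. Sdhc, which with Sdhd anchors the enzyme in the membrane, had the widest range and rose by 0.55 ± 0.14 in DCs (adjusted p = 0.0049). Another Sdhc probe set had the opposite sign in that comparison. Sdhb, the iron-sulphur subunit, rose by 0.71 ± 0.25 in NK cells against CD8 T cells (adjusted p = 0.041), a call lost without any one of 5 arrays. The chosen probe sets of Sdha and Sdhd were called in none of the 5 comparisons. Another Sdha probe set was called higher in DCs (0.29, adjusted p = 0.027) and in NK cells against CD8 T cells (0.70, adjusted p = 0.011), and another of Sdhd lower in NK cells (-0.95, adjusted p = 0.027).

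Among the other alternative subunits of complex IV, Cox8c stood out by its low signals. Cox8c, known from testis in rodents, had 85.9 and 85.2 in CD8 T cells and at most 49.9 on any other array, and it passed the filter through CD8 T cells alone. Cox4i1, the form of the largest nuclear-encoded complex IV subunit found in most tissues, had the narrowest range in its complex, 0.60 (log2), with signals from 2743 in B cell replicate 2 to 5101 in CD8α cDC replicate 2. Cox7a2, the form found in most tissues, rose by 0.87 ± 0.26 in NK cells against CD8 T cells (adjusted p = 0.023), a call lost without NK cell replicate 1 or either CD8 T cell array. Cox7a2l fell by 0.62 ± 0.15 in B cells (adjusted p = 0.0079).

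Atp5g1, Atp5g2 and Atp5g3 encode the same mature c subunit of the rotor ring of the ATP synthase. Atp5g3 had 3312 and 3364 in pDCs, 4625 and 5185 in CD8α cDCs, 3262 and 3678 in CD11b cDCs, 3669.7, 3338 and 3351 in B cells, 5238 and 5110 in NK cells and 4206 and 4049 in CD8 T cells. NK cells and CD8α cDCs were highest, and no neighbours in its order of populations differed beyond their spread. It rose by 0.50 ± 0.15 in CD8α against CD11b cDCs and fell by 0.42 ± 0.11 in B cells (adjusted p = 0.039 and 0.014), the first a call lost without any one of 6 arrays. Atp5g1 was highest in CD8α cDCs (448 and 499), with 233 and 327 in pDCs, and Atp5g2 rose by 0.69 ± 0.22 in NK cells against CD8 T cells (adjusted p = 0.030), a call lost without any one of 3 arrays.

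The members with the narrowest range in the other complexes were Ndufs3, a core subunit of complex I, Uqcrc1, a core protein of complex III, and Atp5a1, the α subunit of the ATP synthase. Their ranges were 0.21, 0.64 and 0.44 (log2), against 3.11 for Ndufb1, 1.55 for Uqcr11 and 2.21 for Atp5l, the widest of the same complexes. Ndufs3 lay between 595 and 1005 and Atp5a1 between 2033 and 3206 over the 13 arrays. Ndufs3, Uqcrc1 and Atp5a1 were called in none of the 5 comparisons.

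Genes that work with the members were taken from lists. ND5, a complex I subunit and the one gene of mitochondrial DNA with a probe set here, had 3794 and 5115 in pDCs, 3940 and 2726 in CD8α cDCs, 4231 and 2823 in CD11b cDCs, 6020.3, 5357 and 4238 in B cells, 4100 and 4383 in NK cells and 2788 and 3435 in CD8 T cells. The replicates lay well apart in all 3 DC subsets and close together in NK cells, and ND5 was called in none of the comparisons. Among 12 electron carriers and enzymes of ubiquinone synthesis, 4 rose (33.3%, against 31.3% of all genes) and 0 fell in DCs. Cycs, cytochrome c itself, had a mean of 4587 in CD8α cDCs and 2304 in CD11b cDCs (0.99 ± 0.25, adjusted p = 0.017). Of 40 assembly factors 14 rose and 5 fell in DCs (35% and 12.5%, against 31.3% and 32.3% of all genes), among them Uqcc2, a complex III assembly factor, which rose by 1.06 ± 0.14 (adjusted p = 6.4e-05).

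The mitochondrial ribosome, which makes the subunits encoded in mitochondrial DNA, is a list of 76 proteins here. In DCs against lymphocytes 38.2% rose and 7.89% fell (31.3% and 32.3% of all genes), in pDCs against cDCs 1.32% and 15.8% (17.7% and 19.1%), and in CD8α against CD11b cDCs 10.5% rose and 0 fell (8.96% and 10.6%). In B cells 11 rose and 9 fell (14.5% and 11.8%, against 17.7% and 20.1% of all genes), where 3 and 34 members did. In NK cells 6 rose and 7 fell (7.89% and 9.21%, against 21.5% and 16.6% of all genes), where 26 and 4 members did. Mrpl42 had a mean of 1593 in CD8α cDCs and 614 in CD11b cDCs (1.38 ± 0.23, adjusted p = 0.0013). The difference between the lists was not tested.

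Regulators of mitochondrial biogenesis showed other counts in DCs: 0 of 16 rose and 10 fell (62.5%, against 32.3% of all genes). Ppargc1b, a coactivator of respiratory chain genes, had 53.6 and 49.3 in pDCs, 0.432 and 10.5 in CD8α cDCs and 0.706 and 1.57 in CD11b cDCs. In lymphocytes it had 54.8, 67.7 and 63.8 in B cells, 64.2 and 51.2 in NK cells and 95.3 and 125 in CD8 T cells. All cDC arrays lay below the floor of 20 and all others at or above 49.3, and the difference of DCs from lymphocytes was -1.41. Ppargc1b passed the filter only through the 3 lymphocyte populations, where it was high, so this value is a description without a test. Polg, the polymerase of mitochondrial DNA, fell by 1.42 ± 0.10 in DCs (adjusted p = 6.5e-07). In NK cells against CD8 T cells 1 of the 16 regulators rose and 8 fell (6.25% and 50%, against 21.5% and 16.6% of all genes). Among those that fell was Lrpprc, which stabilises mitochondrial transcripts (-1.53 ± 0.21, adjusted p = 0.00026).

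**Figure D5:**
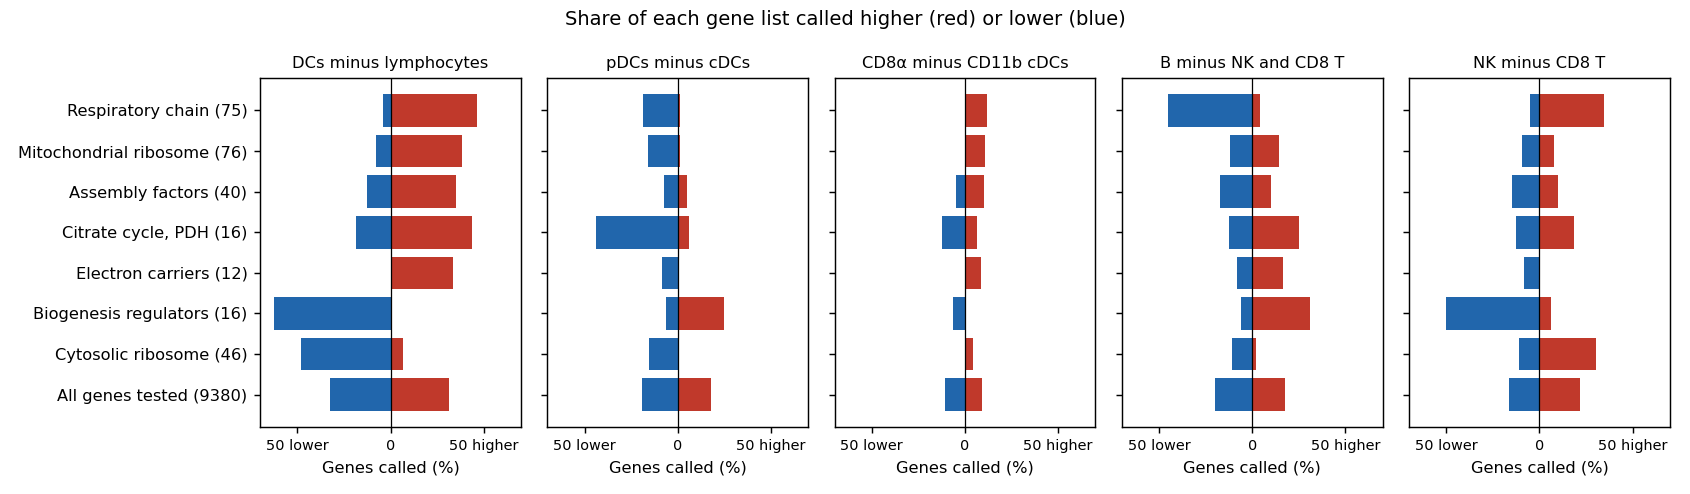
Share of the genes of each list called higher (red, right) or lower (blue, left) by limma in the 5 comparisons, with the number tested in brackets and all 9380 genes at the bottom. The respiratory chain and the mitochondrial ribosome lean to higher in DCs, where 0 of 16 biogenesis regulators are higher and 10 are lower.

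Of 16 genes of the citrate cycle and pyruvate dehydrogenase, 7 rose and 3 fell in DCs (43.8% and 18.8%, against 31.3% and 32.3% of all genes), and 1 rose and 7 fell in pDCs against cDCs (6.25% and 43.8%, against 17.7% and 19.1%). Cs, citrate synthase, had a mean of 1495 in pDCs, against 2752 in CD8α and 2234 in CD11b cDCs (-0.73 ± 0.15 for pDCs against cDCs, adjusted p = 0.0027). Of 46 proteins of the cytosolic ribosome 3 rose and 22 fell in DCs (6.52% and 47.8%).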

How the data were processed

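Total RNA of sorted cells was amplified in 2 rounds and hybridised to 13 arrays. Per the study's methods the deposited intensity values are the authors' MAS5 signals, scaled to a target of 100; the software version is not given in the sources used here. The deposited values are linear, unfloored and not normalized further. The number of arrays limits the precision. Scan days, chip lots and RNA amounts came from the instrument's array records.

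Of 45101 probe sets 34958 were annotated to 1 gene, giving 18194 genes. The probe set with the highest mean stood for a gene. Values were floored at 20 and log2 transformed, and genes were tested where 1 or more populations had every replicate at 50 or above, which left 9380. One limma model (limma 3.58.1, R 4.3.3; lmFit, eBayes; 6 population means, 7 residual degrees of freedom) gave an F-test, 5 orthogonal contrasts and 15 pairwise contrasts. Tests were two-sided, with Benjamini-Hochberg adjustment over all genes tested and a threshold of 0.05. A fold at low signal is understated by the floor. The script was tested on simulated data.

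Named members were alternative subunits, complex II, the widest and narrowest range in each complex, and up to 6 called members each way per contrast with the largest difference and arrays that did not overlap. A few others (Uqcrb, Ndufa10, Atp5b and Ndufs8 in B cells) were chosen after their values were seen. Lists of mitochondrially encoded subunits, electron carriers, assembly factors, the citrate cycle, biogenesis regulators and both ribosomes gave related genes. The members and lists were chosen with earlier results of these data known. The study's methods place the duplicates of the 3 DC subsets and NK cells in 2 independent experiments, but the sources do not tie a replicate number to an experiment. Same-numbered replicates did not all deviate together (correlations from -0.20 to 0.18, above 0.1 for 4 of 15 pairs of populations), so numbers were not taken as pairs. Alternatives changed the normalization, floor, filter, variance model, probe set rule, blocks and arrays.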

Additional observations from a re-analysis of the deposited data

How the results depend on the processing

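Precision is limited by 2 or 3 arrays a population, and values under about 20 carry no order. Leaving out each array in turn, the F-test called 53 to 67 members. In DCs 23 to 42 were higher and 1 to 3 lower, in pDCs against cDCs 1 to 2 and 6 to 23, in CD8α against CD11b cDCs 2 to 13 and 0 to 0, in B cells 1 to 3 and 20 to 39, and in NK cells 18 to 32 and 1 to 7. Where an array was left out, the lone replicate of its population was assumed to vary like the other populations. Calls over all genes also moved with the array left out, so such shifts in counts are not particular to the members.

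Invariant-rank normalization left 3 members higher in CD8α cDCs (7.19% of all genes) and 8 lower in pDCs (18%), and put 7 lower in NK cells (15%). It moved the median between NK and CD8 T cells to 0.21 over all genes and 0.24 over the members, and quantile normalization moved it to 0.13. Quantile normalization put 5 members lower in DCs, where 2794 of 9380 genes were. Without a floor 4 were higher in CD8α cDCs and 9 lower in pDCs, where 530 and 1421 of 9380 genes were. Without the filter 1 was higher in B cells (1397 of 18194 genes). With a variance trend 23 were lower in pDCs (1849 of 9380 genes). With the replicate block 1 was higher and 22 lower in B cells, 5 were higher in CD8α cDCs and 2 in pDCs. Of all genes 14%, 16.9%, 8.2% and 17.5% were, in the same order. The replicate numbers were not taken to pair the arrays.

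Settings chosen after seeing the data moved further counts. Leaving out the arrays whose sex markers oppose their labels removes all CD8 T cells, so B and NK cells alone stand for lymphocytes and B cells are set against NK cells. Then 16 were higher in DCs (27.6% of all genes), 4 in CD8α cDCs (8.43%) and 8 lower in pDCs (18.6%). The differences of Atp5k and Cox6a2 in DCs (-0.013 and -0.29) and of Ndufb6 in B cells (0.018) turned sign. Without both NK cell arrays 7 were higher and 17 lower in B cells (1663 and 1571 of 9177 genes). Cox6b1 in B cells (0.21) and Uqcrc2 in DCs (0.022) turned sign. On DC arrays alone 22 were lower in pDCs (25.6% of all genes). Of the values of named members under all settings, 1547 kept direction and call, 293 lost the call and 5 changed sign. The cause of these changes was not tested.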
